A study of Mus musculus with 8 samples.

Results

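A set of 6 genes of the 2-cell stage embryo was examined in mouse oocytes that lack the deadenylases CNOT7 and CNOT8: Duxf3, Zfp352, Tcstv1, Tcstv3, Tmem92 and B020004J07Rik. None carries the name of a Zscan4, Usp17l, Tdpoz, Pramef or Eif1a-like gene. These 6 of the 46078 genes in the count table were chosen by name with their values in knockout and control oocytes already known, so their difference between the groups is described here without a test. Total RNA was sequenced from fully grown germinal vesicle (GV)-stage oocytes in 8 libraries of 100 oocytes each, 4 from CNOT7&8 KO and 4 from Zp3-Cre control females. The KO mice carried floxed Cnot7 and floxed Cnot8 and a Cre transgene under the Zp3 promoter, which is active in growing oocytes, so both genes are lost in the oocyte only and from its growth phase on. Controls carried Zp3-Cre; whether they also carried floxed alleles is not given in the sources used here. All females were 4 weeks old, on a C57BL/6J background and injected with PMSG to stimulate follicle growth. How many animals gave the oocytes of a library is not given either, so the spread between libraries may be partly technical.

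The mouse embryo switches on its own genome mainly at the 2-cell stage. Dux, a double homeobox transcription factor, is expressed just before, and in embryonic stem cells its expression turns on a set of 2-cell stage genes and the endogenous retrovirus MERVL. Fully grown GV oocytes have largely stopped transcription and live on stored mRNA, and the CCR4-NOT complex, which includes CNOT7 and CNOT8 among its catalytic deadenylase subunits, shortens poly(A) tails and so promotes mRNA decay and translational repression. Of the genes examined, Duxf3 encodes a DUX protein, Zfp352 encodes a zinc finger protein, Tcstv1 and Tcstv3 belong to the 2-cell-stage variable group and have been linked to telomere maintenance in embryonic stem cells, and Tmem92 encodes a predicted transmembrane protein. B020004J07Rik is named Pramel17 by RefSeq, which places it in the PRAME-like family despite its table name.

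All 6 genes are annotated as protein coding in GENCODE vM21 on GRCm38. Duxf3 (ENSMUSG00000075046) lies at chr10:58229979-58232675 on the minus strand and Tmem92 (ENSMUSG00000075610) at chr11:94777217-94782703 on the minus strand. Tcstv1 (ENSMUSG00000096284, chr13:119893388-119894785, minus strand) and Tcstv3 (ENSMUSG00000095821, chr13:120316878-120318178, plus strand) lie 422 kb apart. Zfp352 (ENSMUSG00000070902, chr4:90218820-90225702, plus strand) and B020004J07Rik (ENSMUSG00000035201, chr4:101834969-101844023, minus strand) share a chromosome but not a region. The coding sequence lies in 1 exon in Duxf3, Zfp352, Tcstv1 and Tcstv3, in 3 exons in B020004J07Rik and in 5 exons in Tmem92. It spans 674 codons in Duxf3, 551 in Zfp352, 476 in B020004J07Rik, 171 in Tcstv1, 169 in Tcstv3 and 162 in Tmem92. No other annotated gene overlaps any of them.

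Promoters were looked up for all 6 genes, because DUX recognizes a known sequence. Those shown are the ones found, of Duxf3, Zfp352 and B020004J07Rik, which had under 1 CPM in control oocytes and more in KO oocytes. RefSeq windows of 300 bases (250 before to 50 after the annotated start, GRCm38.p6, printed 5′ to 3′ on the gene's strand) were found for 3 of the 6 genes. Capitals mark TAATCC or its reverse complement GGATTA, a homeodomain-type sequence, and GATTNAATC, the core of the DUX motif, which reads the same on both strands. The motifs were searched on both strands, and TAATCC was chosen after the Zfp352 promoter had been seen.
Zfp352 (chr4:90218570-90218869, plus strand): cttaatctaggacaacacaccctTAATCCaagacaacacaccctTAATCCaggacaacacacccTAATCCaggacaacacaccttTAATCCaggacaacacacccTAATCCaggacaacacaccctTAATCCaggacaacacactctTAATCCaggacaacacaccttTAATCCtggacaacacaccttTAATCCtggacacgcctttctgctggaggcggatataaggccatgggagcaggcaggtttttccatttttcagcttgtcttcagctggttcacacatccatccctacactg
B020004J07Rik, RefSeq Pramel17 (chr4:101843973-101844272, minus strand): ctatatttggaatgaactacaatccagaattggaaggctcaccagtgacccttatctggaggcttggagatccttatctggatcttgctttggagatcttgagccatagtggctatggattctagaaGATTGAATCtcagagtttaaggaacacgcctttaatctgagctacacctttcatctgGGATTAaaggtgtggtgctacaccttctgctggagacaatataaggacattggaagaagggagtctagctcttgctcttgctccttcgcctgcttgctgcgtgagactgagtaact
Duxf3 (chr10:58233040-58233339, minus strand): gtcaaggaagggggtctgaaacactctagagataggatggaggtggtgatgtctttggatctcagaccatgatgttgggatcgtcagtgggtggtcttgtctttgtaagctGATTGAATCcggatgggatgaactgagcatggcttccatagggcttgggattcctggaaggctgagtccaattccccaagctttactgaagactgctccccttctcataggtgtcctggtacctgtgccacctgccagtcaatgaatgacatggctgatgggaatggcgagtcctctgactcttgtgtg

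The Zfp352 window is a tandem array. It holds 9 copies of TAATCC on the printed strand, spaced 20 to 21 bases apart, from 227 to 61 bases before the start. Of 32851 promoter windows of this length, 2320 (7.06%) held TAATCC at least once on either strand, 53 held it 2 or more times on 1 strand, and Zfp352 was the 1 window with 5 or more. The B020004J07Rik and Duxf3 windows each hold 1 copy of GATTNAATC, which 88 of the 32851 windows (0.268%) hold, and the Zfp352 window holds none. The B020004J07Rik window also holds 1 TAATCC on the opposite strand. The TATAAA sequence, present in 13.6% of all windows, is absent from the 3 shown. The RefSeq start of Duxf3 lies 414 bases upstream of the GENCODE start, so the Duxf3 window is placed by the first of these only. A match is a description of the letters and not evidence of binding.

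The Zfp352 and B020004J07Rik windows share a stretch just before their starts, of which 11 bases, ttctgctggag, occur in 49 of the 32851 windows. In the lines below, capitals mark bases that are identical in a gapped local alignment of the 2 windows, starting 44 bases before the Zfp352 start and 42 bases before the B020004J07Rik start.
Zfp352: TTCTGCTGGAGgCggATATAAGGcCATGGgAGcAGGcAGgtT
B020004J07Rik: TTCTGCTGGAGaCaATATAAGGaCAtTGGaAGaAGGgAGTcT
Both lines hold an ATATAAGG run. This comparison was made after the promoters had been seen. The full alignment held 94 identical bases in 145 columns (score 29). The B020004J07Rik and Duxf3 windows aligned at 107 bases in 172 columns (score 23), and those of Zfp352 and Duxf3 at 35 in 56 (score 10). Scores of other promoter pairs were not computed, so the likeness is not shown to be particular to Zfp352 and B020004J07Rik.

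Members of such families share sequence, which bears on how reads are counted. Tcstv1 and Tcstv3 were identical at 483 of 510 aligned coding bases (94.7%). Coding bases 389 to 508 of both, from the GENCODE vM21 transcripts, are shown because many of the differences sit there. Capitals mark bases that differ or have no partner in the alignment.
Tcstv1: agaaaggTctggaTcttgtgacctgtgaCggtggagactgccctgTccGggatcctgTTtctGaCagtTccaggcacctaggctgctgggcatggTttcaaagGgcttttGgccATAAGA
Tcstv3: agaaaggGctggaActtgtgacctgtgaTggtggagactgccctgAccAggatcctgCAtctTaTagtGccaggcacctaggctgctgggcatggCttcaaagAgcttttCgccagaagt
Of all 75-base stretches of a gene's transcripts, 34.1% in Duxf3 also occurred in another annotated gene, most often AW822073. The share was 14.3% in Tcstv3, 8.78% in B020004J07Rik, 6.94% in Tcstv1, 2.86% in Zfp352 (all shared with Zfp353-ps) and 0.798% in Tmem92 (all shared with Gm11544). At 150 bases the share was 14.7% in Duxf3, 0.876% in B020004J07Rik and 0 in the other 4. The Duxf3 count is therefore the least certain, and Dux copies that the annotation does not hold could add to it.

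Total counts were 14943671 to 44092144 in the control and 8639444 to 26784110 in the KO libraries, and levels are given below as CPM, the gene's share of the TMM-normalized library size on the usual CPM scale. For both targeted genes, all KO values lay below all control values, but to different extents. Cnot8 fell from 168 ± 20 CPM (SD, n = 4) to 35.2 ± 1.40 CPM (SD, n = 4), with a log2 fold change of -2.25 (adjusted p = 8.2e-08, edgeR's quasi-likelihood test), and Cnot7 was 933 ± 77.3 CPM in control and 719 ± 70.8 CPM in KO (log2 fold change -0.38, adjusted p = 0.0105), which is not a DEG, and its log2 fold change was -0.09 with library sizes left unscaled. The Cnot7 counts therefore do not check its deletion, and which exons were deleted is not given in the sources used here. Oocyte markers were high in every library: the 12 markers listed summed to 19835 to 22757 CPM in control and 16054 to 18692 CPM in KO, none at 0. Of these 12 markers, 0 were differentially expressed genes (DEGs) by edgeR's quasi-likelihood test, its exact test or DESeq2. A DEG had to reach both 2-fold and an adjusted p of 0.05. Without the 2-fold threshold, 8 passed the adjusted p of 0.05 in the quasi-likelihood test, 7 lower and 1 higher in KO. Of all 19241 genes tested, 4631 were lower and 5997 higher in this way. The median log2 fold change was -0.33 over the 12 markers and 0.12 over all genes. The 12 granulosa and cumulus markers summed to 119 to 156 CPM in control and 177 to 216 CPM in KO. Of the 11 tested, 4 were DEGs higher in KO (Inha, Fshr, Inhba and Nr5a2), beside 23.8% of all genes tested. The groups overlapped for Inha and Inhba, and Inhba lost its call in 6 of 18 alternative settings. Nr5a2, which is also on the activator list below, held 48.3 to 69.3 CPM of that sum in control and 114 to 132 CPM in KO. Of the 5 blood markers, the 4 haemoglobin genes were at 0 in all 8 libraries, and Ptprc, the only one tested, was a DEG higher in KO (log2 fold change 2.53), with 0.0267 to 0.340 CPM in control and 0.326 to 1.11 CPM in KO. The part of these markers in the results below was not tested.

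Of the 6 genes, 4 were DEGs and higher in KO oocytes (Duxf3, Zfp352, B020004J07Rik and Tcstv3), and the fitted change was positive in all 6. Of all 19241 genes tested, 23.8% were DEGs higher in KO and 6.56% were DEGs lower in KO. In 5 of the 6 genes, every KO library lay above every control library, which held for 27.0% of all genes. The median log2 fold change was 2.64 over the 6 genes and 0.12 over all genes. Since the genes were chosen on these values, nothing is read from the counts. Scaling by library size alone moved all log2 fold changes up by a median of 0.29 and gave 5643 higher and 587 lower DEGs in place of 4582 and 1263; under it all 6 genes passed the thresholds. CPM values in each library are shown in the 6-panel plot.

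**Figure D1:**
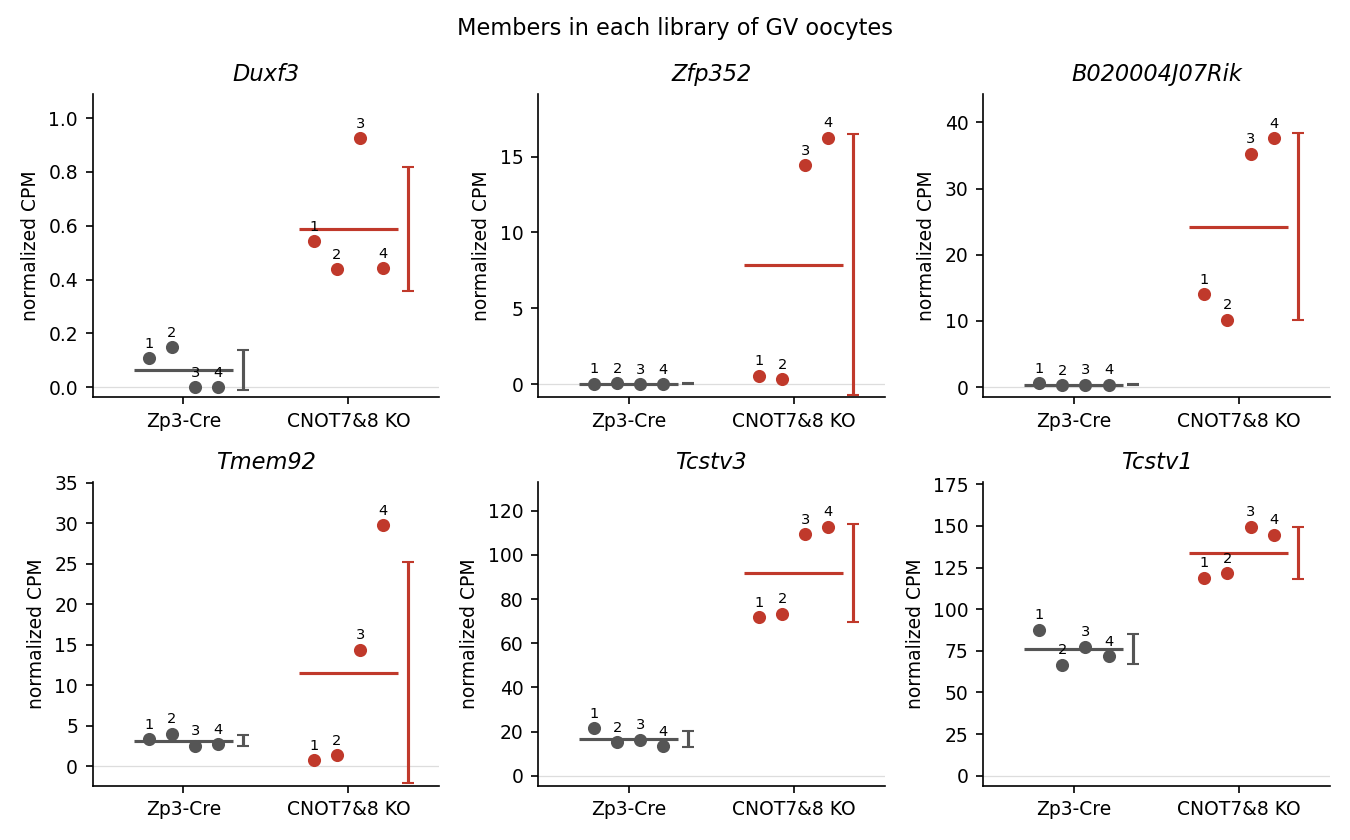
Normalized CPM of the 6 genes in each of the 4 Zp3-Cre (grey) and 4 CNOT7&8 KO (red) libraries. Points carry the replicate number, horizontal lines are group means and bars are SD (n = 4), which reach below 0 where the KO libraries split. Zfp352 and Tmem92 are carried by KO replicates 3 and 4, while the 4 Tcstv1 and Tcstv3 KO points lie together and above all control points.

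Duxf3, the DUX gene itself, stayed close to the detection limit. Control replicates 1 to 4 had 0.107, 0.148, 0 and 0 CPM, from 4, 3, 0 and 0 counts. KO replicates 1 to 4 had 0.543, 0.439, 0.925 and 0.443 CPM, from 5, 8, 15 and 13 counts. The groups did not overlap, and no KO library reached 1 CPM. Pooled over libraries, 41 counts in KO against 7 in control made a 6.91-fold higher level, with an exact 95% interval of 3.07 to 18.2 that covers counting error only, as do all intervals and floors here. The fitted log2 fold change was 2.82 (SE 0.70).

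Among the relatives of Dux by name, only Duxbl1 could be tested, and it did not follow Duxf3. AW822073, described below, shares stretches with Duxf3 under another name and rose by 3.60 on the log2 scale. Duxbl1, a Dux-like gene, had 1.02, 1.48, 1.29 and 1.17 CPM in control replicates 1 to 4 and 0.760, 0.769, 0.986 and 1.57 CPM in KO replicates 1 to 4. These values overlap, and the log2 fold change was -0.22 (SE 0.33, adjusted p = 0.586, edgeR's quasi-likelihood test), or 0.06 with library sizes left unscaled. Duxbl2 and Duxbl3 had 1 and 2 counts in all, both in control libraries, and were not tested.

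Zfp352 had the greatest change among the 6 genes and the most uneven one. Control replicates 1 to 4 had 0.0267, 0.0493, 0 and 0 CPM, from 1, 1, 0 and 0 counts. KO replicates 1 to 4 had 0.543, 0.329, 14.4 and 16.2 CPM, from 5, 6, 234 and 477 counts. All KO libraries lay above all control libraries, but KO replicates 3 and 4 held nearly all of the signal. Pooled over libraries, 722 counts in KO against 2 in control made a ratio of 426, with an exact 95% interval of 117 to 3522. The KO mean of 7.88 CPM had an SD of 8.63 (n = 4), larger than the mean. Oocytes were pooled in each library, so a high level in few oocytes and a lower level in all of them cannot be told apart.

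The pseudogene Zfp353-ps, which shares stretches with Zfp352, split in the same way. It had 0 counts in all 4 control libraries, and KO replicates 1 to 4 had 0.651, 0.384, 5.06 and 10.4 CPM. Against a floor of 3 counts over the control group (0.0348 CPM), the pooled KO level was at least 158-fold higher. With 0 counts in control, Zfp353-ps could pass the filter on low counts only through the KO libraries, so no test is given. No 150-base stretch is shared by Zfp352 and another annotated gene.

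B020004J07Rik (Pramel17) rose from a level below 1 CPM in each control library. Control replicates 1 to 4 had 0.561, 0.296, 0.408 and 0.364 CPM. KO replicates 1 to 4 had 14.0, 10.2, 35.3 and 37.6 CPM, all far above the controls. The fold between the group means was 59.6, and the log2 fold change was 5.81 (SE 0.49). As with Zfp352, KO replicates 3 and 4 were the higher, although replicates 1 and 2 were also clearly raised.

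The 2 Tcstv genes differed from the others in being well expressed in control oocytes. Tcstv1 had 87.5, 66.6, 77.4 and 71.9 CPM in control replicates 1 to 4, and 119, 122, 149 and 145 CPM in KO replicates 1 to 4. Every KO library was higher, but the log2 fold change of 0.82 (SE 0.12) lay under the 2-fold threshold, which it passed with library sizes left unscaled (1.11). Tcstv3 had 21.5, 15.2, 16.4 and 13.3 CPM in control and 71.8, 73.4, 109 and 113 CPM in KO replicates 1 to 4. Its groups were far apart, with a log2 fold change of 2.46 (SE 0.20) and a fold of 5.54 between the means. Per kilobase of exon, which allows levels of different genes to be compared, Tcstv1 was above Tcstv3 in 4 of 4 control libraries, and Tcstv3 was above Tcstv1 in 4 of 4 KO libraries. With the longest transcript as the length, Tcstv1 was above Tcstv3 in 2 of 4 KO libraries, so the order in KO depends on the length used.

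Tmem92 was the gene without a common direction. Control replicates 1 to 4 had 3.34, 4.0, 2.52 and 2.70 CPM. KO replicates 1 to 4 had 0.760, 1.37, 14.4 and 29.7 CPM. KO replicates 1 and 2 thus lay below every control library and KO replicates 3 and 4 above every control library. The fitted log2 fold change was 1.91 (SE 0.79), short of the threshold on adjusted p. It became 0.86 without KO replicate 4, 2.30 without KO replicate 1 or 2, and 0.88 with the replicate number as a block, and Tmem92 passed the thresholds without KO replicate 1, without KO replicate 2, with edgeR's exact test, with 2 of the 3 other scalings and with no filter on low counts.

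Per kilobase of exon, levels in control oocytes ran from 54.2 ± 6.41 CPM per kb (SD, n = 4) for Tcstv1 through 21.3 ± 4.49 for Tcstv3, 1.43 ± 0.31 for Tmem92 and 0.206 ± 0.0569 for B020004J07Rik to 0.0236 ± 0.0280 for Duxf3 and 0.00836 ± 0.0105 for Zfp352. The last 2 did not differ beyond their spread. Tcstv1 lay above 93.9% of the 19126 tested genes with a length, and Zfp352 above 4.01%. In KO oocytes the order was Tcstv3 at 118 ± 28.6, Tcstv1 at 95.7 ± 11.2, B020004J07Rik at 12.3 ± 7.16, Tmem92 at 5.28 ± 6.24, Zfp352 at 3.46 ± 3.79 and Duxf3 at 0.218 ± 0.0853 CPM per kb (SD, n = 4). Among the KO levels, Tcstv3 and Tcstv1 overlapped within their SD, as did B020004J07Rik and Tmem92, Tmem92 and Zfp352, and Zfp352 and Duxf3. Within libraries, B020004J07Rik was above Tmem92 and Tmem92 above Zfp352 in 4 of 4 KO libraries, with either length. In KO oocytes, Tcstv3 was above 98.4% and Duxf3 above 16.6% of tested genes, so the 6 genes span most of the range of expression.

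The 4 KO libraries fell into an order that most of the genes shared. KO replicates 3 and 4 were both above replicates 1 and 2 in 5 of the 6 genes, all but Duxf3, and in 20.0% of all genes tested. The mean of replicates 3 and 4 was 35.2 times that of replicates 1 and 2 for Zfp352, 20.7 times for Tmem92 and 3.01 times for B020004J07Rik. It was 1.53 times for Tcstv3, 1.39 times for Duxf3 and 1.22 times for Tcstv1. The biological coefficient of variation ran in a like order, from 0.909 for Zfp352 and 0.748 for Tmem92 to 0.379 for B020004J07Rik, 0.360 for Duxf3, 0.20 for Tcstv3 and 0.142 for Tcstv1, against a median of 0.225 over all genes. This order was noticed in the values and has no test. Granulosa and cumulus markers summed to 216, 207, 184 and 177 CPM and oocyte markers to 17922, 18692, 16302 and 16054 CPM in KO replicates 1 to 4, and their part in this order was not tested. Total counts were 8639444, 16432525, 14210736 and 26784110 and did not follow the order.

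**Figure D2:**
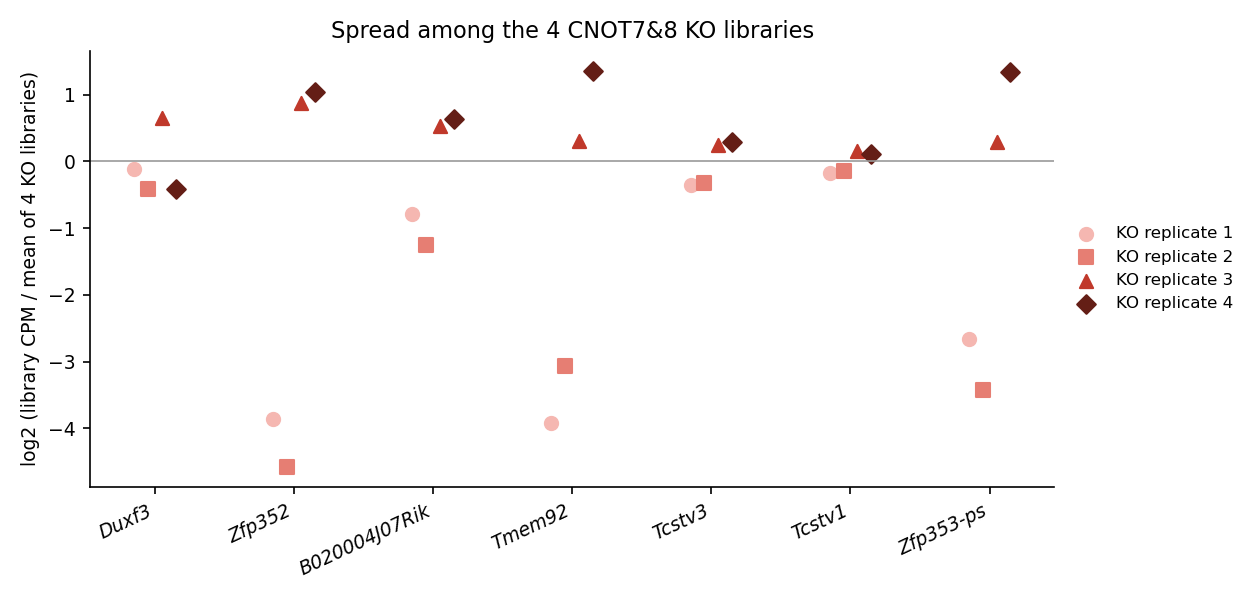
Level of each gene in the 4 CNOT7&8 KO libraries as log2 of the library's CPM over the mean CPM of the 4 libraries, with 1 symbol per replicate; 0 marks the mean. Replicates 1 and 2 lie furthest below the mean for Zfp352, Tmem92 and the related pseudogene Zfp353-ps, and the 4 libraries lie closest together for Tcstv1.

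For comparison, 40 other genes expressed at the 2-cell stage were listed. They were chosen with earlier results known and belong largely to the Zscan4, Usp17l, Tdpoz and Eif1a-like families, whose copies share reads and are not independent. The table held 39 of the 40 names in 40 rows, 36 of which were tested. Of these 36, 32 were DEGs and higher in KO and 0 were lower DEGs, beside 23.8% and 6.56% of all genes tested. Of the 36, 13 had 0 counts in all control libraries and could pass the filter on low counts only through the KO libraries. Others with few control counts, among them Tdpoz3 and AF067061, also passed only through the KO libraries. The count and the median below are therefore a description that was partly fixed by the choice and by the filter. The quasi-likelihood test gave 2 of the 36 lower in KO at an unadjusted p under 0.05, and the exact test and DESeq2 gave 0 lower and 32 and 30 higher DEGs. The median log2 fold change was 6.94, or 5.90 when these 13 genes were set to their lower bound. The 4 named by their fitted log2 fold change were at 0 counts in every control library, so that their order is not established: Gm2022 was at least 629-fold higher in KO, Usp17la, a deubiquitinase gene, at least 425-fold, Gm2016 at least 257-fold and Zscan4e, of the Zscan4 family, at least 235-fold. The 4 tested genes that were not DEGs were Trim43c, Sp110, Arg2 and Cml2, named here after their values were seen. KO replicates 3 and 4 were above replicates 1 and 2 in 33 of the 36 genes, beside 20.0% of all genes tested.

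Regulators that act on Dux, MERVL or 2-cell genes were examined next. Of 15 activators tested, 7 rose and 1 fell, with a median log2 fold change of 1.11, beside 23.8% higher and 6.56% lower and a median of 0.12 over all genes. Of the 15, 1 had 0 counts in all control libraries and could pass the filter on low counts only through the KO libraries. Zscan4c is also counted among the other 2-cell stage genes, so the lists are not independent and the count is a description. Zscan4c, itself a 2-cell stage gene, had 1.82, 1.28, 1.43 and 1.53 CPM in control and 15.4, 14.3, 71.9 and 66.3 CPM in KO replicates 1 to 4 (log2 fold change 4.78, adjusted p = 2.15e-05, edgeR's quasi-likelihood test). As with Zfp352, KO replicates 3 and 4 were the higher. Dppa4, which with Dppa2 acts on the Dux promoter, had 24.6, 21.1, 21 and 23.9 CPM in control and 79.4, 81.8, 71.5 and 73.2 CPM in KO (log2 fold change 1.75, adjusted p = 3.73e-07). Dppa4 was even across the KO libraries, as was Kdm5b, a histone demethylase gene (log2 fold change 2.04, adjusted p = 3.04e-06). Obox3, a homeobox gene, rose by 1.71 on the log2 scale (adjusted p = 0.000795). Smarca5, a chromatin remodeler gene, was the activator that fell, by 1.07 on the log2 scale (adjusted p = 2.06e-05); it kept its direction but not its 2-fold change with library size scaling, upper quartile scaling or the stricter filter, or without control replicate 1 or KO replicate 3.

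Of 36 repressors tested, 5 rose, 3 fell and 28 did not pass, with a median log2 fold change of -0.01, beside 23.8% higher and 6.56% lower of all genes. With the 2-fold threshold, the counts are thus no larger than the background for higher genes and near it for lower genes. With the threshold on adjusted p alone, 13 of the 36 were higher and 13 were lower, beside 5997 and 4631 of all 19241 genes tested. Of the 13 lower ones, only the 3 that fell passed 2-fold, so most were changes of less than 2-fold. Every KO library lay above every control library in 8 of the 36, beside 27.0% of all genes tested. Every KO library lay below every control library in 12 of the 36. The share of all genes was not computed for that direction, so nothing is read from this count. Cbx3, a heterochromatin protein gene, rose by 2.20 on the log2 scale (adjusted p = 8.68e-06, edgeR's quasi-likelihood test), Ehmt2, a histone H3K9 methyltransferase gene, by 1.79 (adjusted p = 6.34e-05), Zfp42 by 1.71 (adjusted p = 0.00025) and the histone deacetylase gene Hdac1 by 1.52 (adjusted p = 1.17e-05). Dnmt1, the maintenance DNA methyltransferase, had 3935 to 4698 CPM in control and 1730 to 2088 CPM in KO (log2 fold change -1.20, adjusted p = 3.79e-06). Uhrf1, its partner, fell by 1.13 (adjusted p = 0.000164) and the SUMO ligase gene Pias4 by 1.03 (adjusted p = 0.00434), the latter with overlapping groups. With library sizes left unscaled, these 3 genes and Smarca5 kept their direction but were no longer past the 2-fold threshold, and Pias4 also lost its call in 6 further settings, among them leaving out control replicate 2, 3 or 4 or KO replicate 4.

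**Figure D3:**
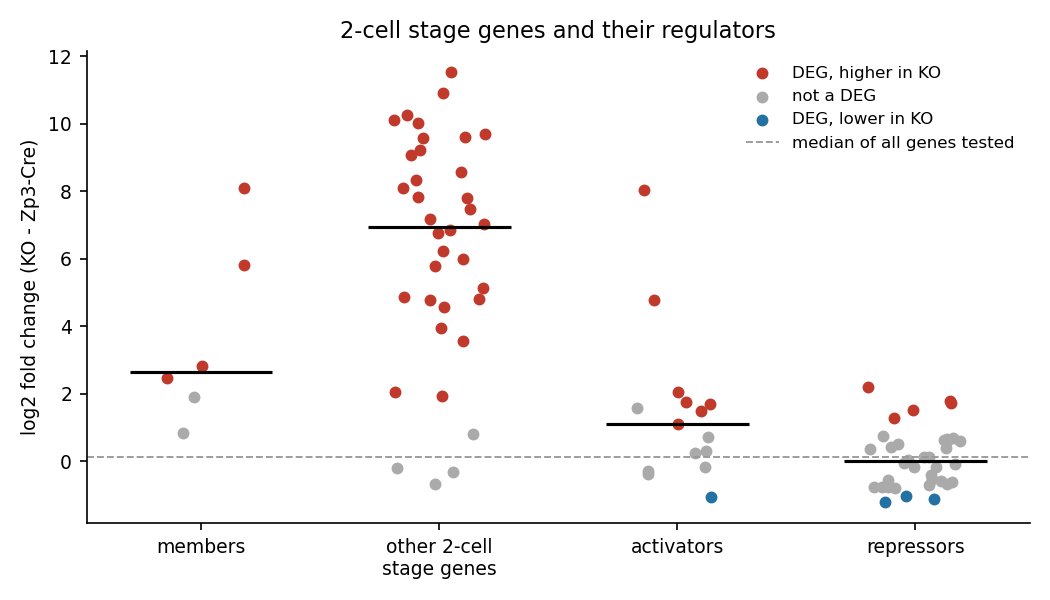
Log2 fold change of each tested gene (KO minus Zp3-Cre, edgeR) among the 6 genes described ("members"), the other 2-cell stage genes, activators and repressors. Points are genes, colored by whether they were DEGs, black lines are medians and the dashed line is the median of all genes tested (0.12). Other 2-cell stage genes lie highest with a median of 6.94, and repressors spread around 0.

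Position was not used to choose the genes, so their neighbors were examined. Of 74 annotated genes within 250 kb of any of the 6, 53 were tested, 29 (54.7%) were DEGs and higher in KO, and 1 was lower, against 23.8% and 6.56% of all genes. Several are copies of one family or of a gene described here, and 3 are on the list of other 2-cell stage genes, so they are not independent of the choice of the 6 genes. Several of the 29 could pass the filter on low counts only with the KO libraries. Among them, Gm10807 and A430060F13Rik were at 0 in control, and AF067061, Gm12800, Gm11544, Gm11546 and AW822073 were near it. The share of 54.7% was thus partly fixed by the filter. The count differed by locus. Of the tested neighbors, 6 of 6 rose around Tcstv3, 8 of 10 around B020004J07Rik, 5 of 9 around Tcstv1, 3 of 7 around Duxf3, 7 of 19 around Tmem92 and 1 of 3 around Zfp352.

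Of the 8 neighbors of at least 1 CPM on average with the largest changes, 5 sat in the Tcstv region of chromosome 13. AF067061, 52.4 kb from Tcstv3, had 0, 0.0493, 0.204 and 0.0728 CPM in control and 5.10, 5.93, 43.2 and 45.6 CPM in KO replicates 1 to 4. It passed the filter on low counts only through the KO libraries, so no test is given. Around Tcstv1, B020031M17Rik (54.6 kb away) rose by 6.68 on the log2 scale, AF067063 (63.2 kb) by 5.30 and D13Ertd608e (46.8 kb) by 5.01. Gm20767, which lies 245 kb from Tcstv1 and 162 kb from Tcstv3, rose by 5.14, from 2.91 ± 0.58 to 103 ± 39.1 CPM (SD, n = 4). All 5 rose more than Tcstv1 or Tcstv3 on the log2 scale, from lower control levels. The 4 tested genes around Tcstv1 that were not DEGs lay together on 1 side, 102 to 239 kb away: Ccl28, Hmgcs1, Nim1k and Zfp131.

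On chromosome 4, Gm12800, 65.1 kb from B020004J07Rik, had 0.187, 0.0493, 0 and 0.291 CPM in control and 25.6, 18.3, 71.1 and 81.2 CPM in KO replicates 1 to 4. Gm12800 passed the filter on low counts only with the KO libraries, so no test is given. On the other side of B020004J07Rik, Lepr, the leptin receptor gene, 19.6 kb away, and Leprot, 176 kb away, were not DEGs, with log2 fold changes of 0.39 and 0.31. Dnajc6, 192 kb away, was a DEG and rose by 2.15 on the log2 scale. Beside Tmem92, 2 pseudogenes named by the same rule rose. Gm11546 had 0.0267 to 0.272 CPM in control and 1.41, 0.384, 17.0 and 13.6 CPM in KO. Gm11544 had 2 counts in control and 202 in KO, a pooled ratio of 119 with an exact 95% interval of 32.5 to 990, and was at 0 in KO replicates 1 and 2. Both thus split between KO replicates 1 and 2 and replicates 3 and 4, as Tmem92 did. Near Duxf3, the DEGs were AW822073, Gm10807 and Gm4981, within 5.05 kb, whereas Gm19459, 6.93 kb away, with a log2 fold change of 1.16, was not a DEG. Only Gm4981 was well above the floor, at 44.1 ± 4.12 CPM in control and 102 ± 13.1 CPM in KO (SD, n = 4). AW822073 had 0.0429 ± 0.0506 and 0.508 ± 0.208 CPM. Gm10807 had 0 in control and 0.177 ± 0.119 CPM in KO, and could pass the filter on low counts only through the KO libraries. Further out, Gcc2, Lims1 and Ranbp2, 22.8 to 214 kb away, had log2 fold changes of -0.12, 0.13 and -0.58 and were not DEGs. AW822073 shares stretches with Duxf3, so their counts are not independent.

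**Figure D4:**
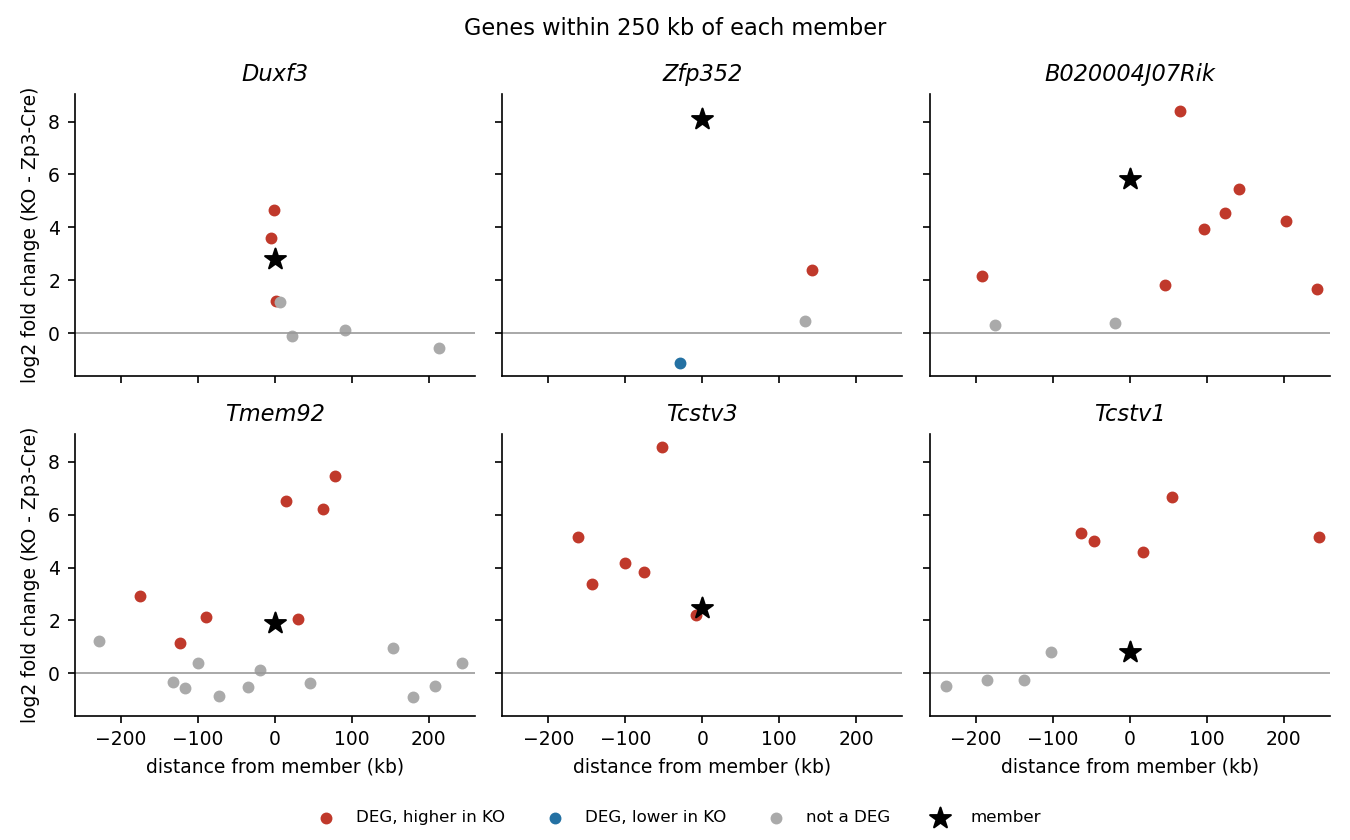
Log2 fold change (KO minus Zp3-Cre, edgeR) of tested genes within 250 kb of each of the 6 genes against the distance in kb from the gene, which is drawn as a star at 0; negative distances are toward lower coordinates. All 6 tested neighbors of Tcstv3 are DEGs higher in KO, and the 3 raised neighbors of Duxf3 lie within 5.05 kb of it. Among those 3, AW822073 and Gm10807 are near the floor.

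Genes whose profile over the 8 libraries was nearest to the mean profile of the 6 genes were Gm13083, Rasgrp1 (a Ras exchange factor gene), Ceacam1 (a cell adhesion molecule gene), Tmem45a2 and RP24-301O17.1. Their root mean square differences from that profile were 0.28 to 0.42 log2 units over 8 libraries, among 13753 genes of at least 1 CPM on average, while the 6 genes themselves differed from it by 0.51 to 1.41. Gm13083, the nearest, had 3.15, 2.12, 2.31 and 2.48 CPM in control and 9.99, 7.80, 48.5 and 46.2 CPM in KO replicates 1 to 4. The list depended on the measure. Over the 4 KO libraries alone, the nearest were Usp17lb, Usp17lc, BC147527, Tdpoz3 and Gm13128, at 0.0345 to 0.0700 log2 units, with 0 genes shared with the first list. With a prior count of 0.5, 2 of the 5 were shared.

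The study asks how deadenylation acts on maternal mRNAs with a cytoplasmic polyadenylation element, a U-rich sequence in the 3′UTR, so the annotated 3′UTRs of the 6 genes were searched for TTTTAT, the letters of that element. It was found in Tmem92 only, of the 6, with 2 copies among 1430 bases, shown here in capitals within 30 bases and named by the position of its first base.
Tmem92, 3′UTR position 75: tctctcttgtccTTTTATttaattttttgt
Tmem92, 3′UTR position 93: ttaattttttgtTTTTATtcagataagacc
The copies end 1350 and 1332 bases before the annotated end. Of 15132 tested genes with a 3′UTR of at least 50 bases, 56.2% held the element. Their 3′UTRs were longer, with a median of 1118 bases against 102 to 672 bases in the 5 genes without it (Tcstv3 102, Tcstv1 191, B020004J07Rik 402, Zfp352 422 and Duxf3 672). ATTTA, the core of AU-rich elements, was found in Zfp352 and Tmem92, 1 copy each, and in 69.7% of the 15132 genes.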

How the data were processed

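Per the labels and the study's methods, the authors extracted total RNA from pools of 100 GV oocytes, mapped paired reads to GRCm38 with STAR 2.6.1d and deposited raw counts per gene, neither normalized nor filtered. The labels name a total RNA kit with ribosomal RNA removal and the methods a stranded mRNA kit used for ribosomal RNA depletion; poly(A) capture could make levels depend on tail length, and which kit was used was not settled. The counting tool, annotation and strand setting are not given in the sources used here, so counts of near-identical genes are uncertain. All 8 value columns were matched to samples by name, and 0 were left unmapped. Genes with at least 0.2 CPM in 2 libraries were tested with TMM scaling and edgeR's quasi-likelihood test (R 4.3.3, edgeR 4.0.16, limma 3.58.1), with Benjamini-Hochberg adjustment over 19241 genes. A DEG had to reach both 2-fold and an adjusted p of 0.05. Printed CPM values are counts scaled to the TMM-normalized library size, and the study's exact test and DESeq2 1.42.0 were alternatives. Tested on simulated data with 200 of 19241 genes changed 4-fold, the quasi-likelihood test recovered 193 with 8 false calls, the exact test 195 with 18 and DESeq2 194 with 11. The changed genes had a mean of at least 1 CPM and went up and down in equal numbers. The recovery therefore does not cover genes near the floor, such as Duxf3, or data in which most changed genes are higher.

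Of the table's gene identifiers, 98.2% were found in GENCODE vM21, which gave positions, lengths, coding sequences and 3′UTRs. Promoters came from RefSeq, and Python 3.11.15, pandas 2.3.3, Biopython 1.88 and matplotlib 3.10.9 were used. Intervals of pooled ratios are exact Clopper-Pearson intervals at 95%, and the floor is 3 counts, over the 4 control libraries unless said otherwise, or 0.0802 to 0.326 CPM in single libraries. The 6 genes and all lists were chosen with earlier results of these data known. From each list, up to 4 DEGs in each direction of at least 1 CPM with the largest log2 fold change are named, with 8 neighbors, 5 nearest profiles, relatives by name, Cnot7 and Cnot8; other names were added after their values were seen. Alternatives covered scaling, filter, test, threshold, replicate block and leaving out each library, or control replicate 1 and KO replicate 4 together.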

Additional observations from a re-analysis of the deposited data

Results flagged for a closer look

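Samples that stand apart were sought among the named genes by Dixon's criterion, in 60 groups of 4 libraries, and 3 groups were apart, which is the number that chance gives (3). None of them was a group of the 6 genes described. In each, control replicate 1, the most deeply sequenced library, lay apart from the other 3 control libraries. Smarca5 had 561 CPM there against 437 to 444 CPM. Pias4 had 30.2 CPM against 56.9 to 61.8 CPM. Cnot7 had 1049 CPM against 886 to 900 CPM.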

How the results depend on the processing

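There were 251 alternative values of the gene counts, the 6 genes' levels and fold changes and the nearest profiles. Only the fold changes and their median could reverse direction, and none of them did (Duxbl1, not among them, turned from -0.22 to 0.06 with library size scaling). Of the 251 values, 238 stayed near the main value and 13 moved. Near meant within a fixed ratio for counts and within the spread between libraries for levels and fold changes. It does not mean that calls held: with the 2-fold threshold kept, Tmem92 changed its call in 6 settings and Tcstv1 in 1. With at least 1 CPM required in 4 libraries, which leaves Duxf3 and Zfp352 untested, 2 of the 6 genes, 20 other 2-cell stage genes and 2882 higher genes in all were DEGs, with fewer genes tested. Under the same filter 2 regulators were lower DEGs, Smarca5 and Pias4 having lost their calls, and the cause was not tested. With scaling by library size alone, 587 genes and 0 regulators were lower DEGs, and with upper quartile scaling 2 regulators were. Without the 2-fold threshold, 4631 genes were lower, and 20 regulators were higher and 15 lower; those counts are larger by construction. The numbers of replicates did not pair the libraries: deviations of same-numbered libraries correlated at -0.07, -0.04, 0.11 and -0.12 across genes, which are not independent replicates. Libraries of different number went further, to 0.37 for control replicate 1 with KO replicate 4 and -0.33 with KO replicate 3. With control replicate 1 and KO replicate 4 both left out, 4 of the 6 genes and 25 other 2-cell stage genes were DEGs, and Tmem92 was at 0.87. With the number as a replicate block, 4 of the 6 genes, 31 other 2-cell stage genes, 12 higher and 4 lower regulators, 28 neighbors, 4316 higher and 1254 lower genes were DEGs, and the median of the 6 was 2.67. The block moved Tmem92 to 0.88 and Zfp352 to 7.36. When each library was left out in turn, 4 to 5 of the 6 genes were DEGs, their median was 2.46 to 2.88, and 25 to 32 other 2-cell stage genes, 25 to 29 neighbors, 11 to 13 higher and 3 to 4 lower regulators, 4233 to 4601 higher and 1032 to 1430 lower genes were DEGs. Values near the floor, those of Duxf3 and of Zfp352 in control, are limited by depth.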
